A study of Mus musculus with 19 samples.

Results

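Lipid droplet coat proteins were followed here through 8 genes: the perilipins Plin1, Plin2, Plin3 and Plin4, and Cidec, Hilpda, Bscl2 and Fitm2. They were chosen by gene symbol from a table of 24237 genes, and each had 1 row in it. RNA came from epididymal white adipose tissue (eWAT) of male C57BL6/J mice that started at an age of 9 to 10 weeks and were fed 1 of 4 diets for 17 weeks, with 1 library per mouse. Palm oil gave 10% of the energy of the low-fat diet (LFD) and 60% of that of the high-fat diet (HFD). Either diet held 0.21% (wt/wt) magnesium oxide (NormMg) or 0.03% (LowMg). This gave NormMg-LFD (n = 4, replicates 2 to 5), LowMg-LFD (n = 5), NormMg-HFD (n = 5) and LowMg-HFD (n = 5) mice. The comparisons ask how dietary fat and Mg2+ alter the droplet genes, alone and together. Values are FPKM, in which the fragments of a gene are divided by its transcript length and by the library total, so that levels can be set side by side between genes. Differences are on the log2(FPKM + 1) scale, given with their SE, and adjusted p values come from a limma fit of the 4 groups over 8336 genes. All 8 genes passed its filter on low values.

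A lipid droplet is a core of triacylglycerol and sterol esters under a single layer of phospholipid, and proteins on that layer decide which enzymes reach the core. PLIN1 is the main coat of the large droplet of adipocytes and holds back lipolysis until the cell is stimulated, while PLIN2 coats droplets in most other cell types, lipid-laden macrophages among them. Seipin and FIT2 act earlier, where droplets form at the endoplasmic reticulum, and CIDEC joins small droplets into larger ones.

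All 8 genes are protein coding and were placed with the GENCODE annotation of GRCm38. Plin1 lies on the minus strand at chr7:79720218-79732903, Plin2 on the minus strand at chr4:86648386-86670060 and Cidec on the minus strand at chr6:113424634-113435760. Hilpda lies on the plus strand at chr6:29272488-29275446, Bscl2 on the plus strand at chr19:8837467-8848683 and Fitm2 on the minus strand at chr2:163466379-163472629. Plin4 (chr17:56100591-56109803) and Plin3 (chr17:56277476-56292873), both on the minus strand, are 167673 bp apart, and Plin5, a further perilipin, begins 1798 bp beyond the end of Plin4. Bscl2 overlaps Gng3 on the other strand by 1728 bp and the protein-coding gene AC129217.1 on its own strand by 3671 bp. Fitm2 shares 673 bp with the antisense gene 2310001K24Rik, and Plin4 shares 17 bp with Hdgfl2. Whether the reads kept their strand is not given in the sources used here, so reads from these overlaps cannot be told apart.

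Plin2 and Hilpda rose most on the HFD among the 8 genes, and their promoters are shown for that reason. Each runs from 250 bases before to 50 bases after a start site, on the strand of the gene, as RefSeq gives it for GRCm38.p6. The Plin2 promoter is chr4:86670010-86670309 on the minus strand, and the Hilpda promoter printed is chr6:29272376-29272675 on the plus strand, the second of 2 that RefSeq lists for this gene.
Plin2: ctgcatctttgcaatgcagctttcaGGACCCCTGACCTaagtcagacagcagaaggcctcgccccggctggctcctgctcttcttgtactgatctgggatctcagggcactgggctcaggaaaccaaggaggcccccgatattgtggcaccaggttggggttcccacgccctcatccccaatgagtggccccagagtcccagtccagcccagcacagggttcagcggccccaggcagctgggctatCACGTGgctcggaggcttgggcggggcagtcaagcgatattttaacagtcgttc
Hilpda: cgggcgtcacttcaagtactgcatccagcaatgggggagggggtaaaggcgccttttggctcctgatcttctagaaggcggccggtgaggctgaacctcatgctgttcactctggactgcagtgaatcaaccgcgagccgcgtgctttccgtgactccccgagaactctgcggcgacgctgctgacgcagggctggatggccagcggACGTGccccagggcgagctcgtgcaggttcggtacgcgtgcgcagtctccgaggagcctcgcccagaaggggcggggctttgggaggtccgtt
Capitals mark matches to 2 motifs that were searched on both strands. A direct repeat of AGGTCA with 1 base between its copies, which PPAR and RXR pairs are known to bind, was allowed 2 mismatches, and ACGTG, the core that hypoxia-inducible factors are known to bind, was allowed none. The direct repeat matched once in the Plin2 promoter, on the opposite strand, from base -225 relative to the start site, with 2 mismatches, in the first run of capitals. ACGTG matched the Plin2 promoter on both strands in overlapping letters, from bases -4 and -3 (the second run of capitals), and the printed Hilpda promoter once, from base -43. The other Hilpda promoter, chr6:29272238-29272537, whose start site is the gene start given above, held neither motif. Over all 32851 promoters of this length, 3.86% held the direct repeat and 19.6% held ACGTG. Of the 12 promoters listed for the 8 genes, which give Hilpda and Cidec 2 each and Bscl2 3, the direct repeat was found in 1 and ACGTG in 2.

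Libraries held 12986441 to 13027028 reads, of which 86.12% to 90.41% were mapped. The tissue carried its defining markers: the 14 adipocyte genes looked at, with adiponectin (Adipoq) and Fabp4 among them, summed to between 15380 and 29627 FPKM in every mouse. Some libraries stood apart. NormMg-LFD replicate 3 had all 15 exocrine pancreas genes over 8 FPKM, with a sum of 1973 FPKM, against 12.5 to 62.0 FPKM in the other 18 mice. LowMg-LFD replicate 4 held 126 FPKM of 8 epididymis genes, against at most 4.08 FPKM elsewhere. NormMg-LFD replicate 4 had the lowest percent mapped (86.12%). Its 14 adipocyte genes summed to 19783 FPKM, against at least 22301 FPKM in the rest of its group. A LowMg-HFD sample was left out of the study for pancreatic tissue, but the labels do not name it, and the pancreas genes summed to only 24.1 to 51.2 FPKM in the 5 LowMg-HFD mice kept here. Results that turn on any of these libraries are given with and without them. In whole tissue, fewer cells of a type and less RNA per cell cannot be told apart.

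Cidec was the most abundant of the 8 transcripts in each group, at a mean of 1787 to 2253 FPKM, and Plin1 followed in both LFD groups and in LowMg-HFD mice. In NormMg-HFD mice the second place went to Plin2, at 848 FPKM against 630.4 FPKM for Plin1. Plin4 had means of 462 to 850.3 FPKM and Bscl2 of 157 to 185 FPKM. Fitm2, Plin3 and Hilpda were the lowest, with group means of 44.9 to 60.6, 28.3 to 42.3 and 9.42 to 31.4 FPKM, respectively. The spread between mice also differed: the coefficient of variation within a group was 3.73% to 12.7% for Plin3 and 15.9% to 33.0% for Plin2.

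**Figure D1:**
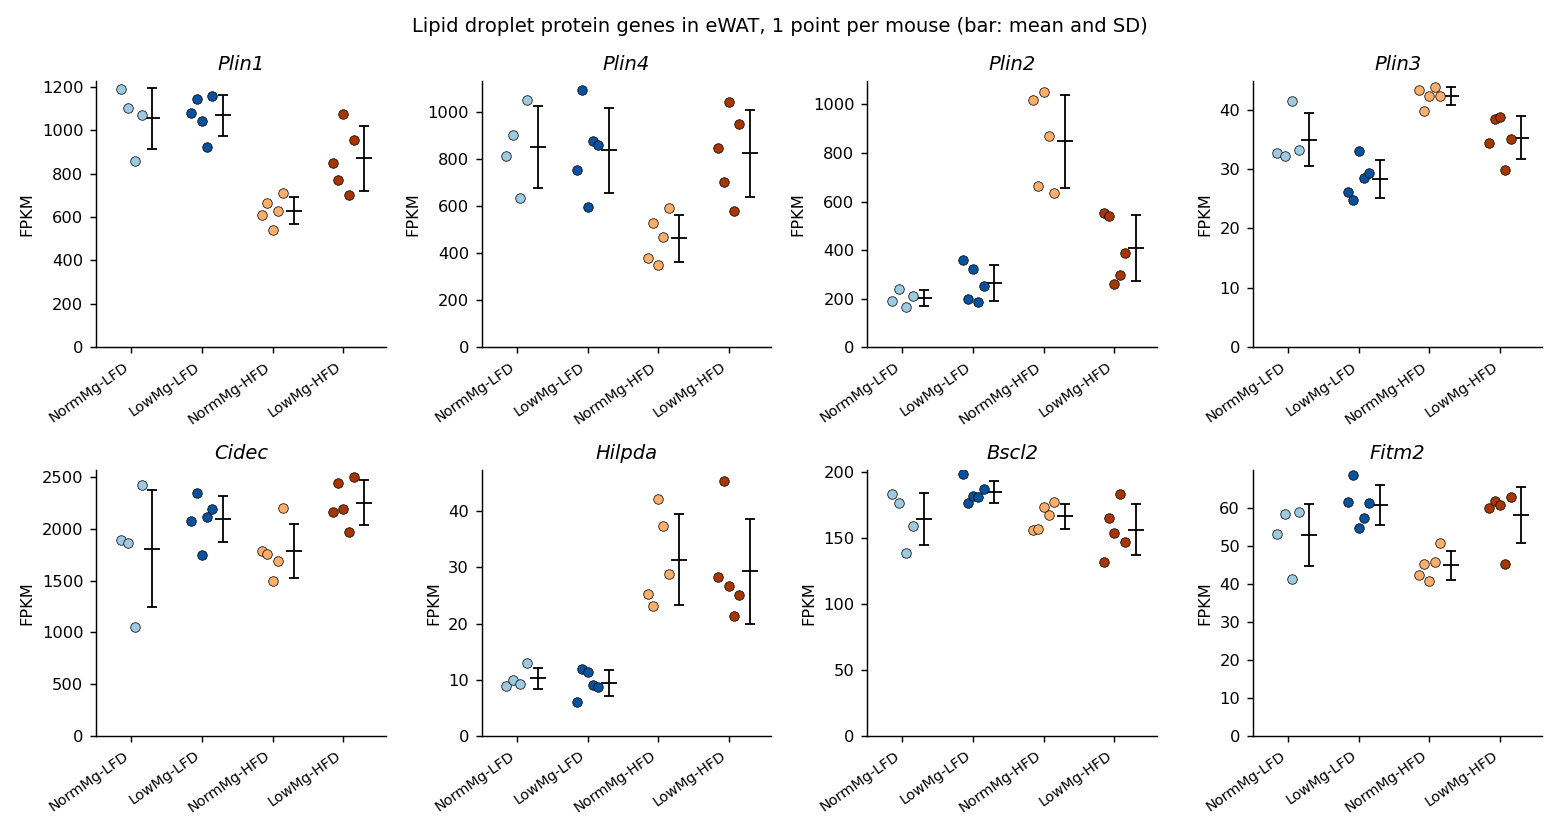
FPKM of the 8 lipid droplet genes in eWAT, 1 panel per gene on a linear axis from 0, with 1 point per mouse and the mean and SD of each diet group beside the points. Plin2 sits at 637 to 1052 FPKM in NormMg-HFD mice and at 164 to 554 FPKM in all others, Plin1 and Plin4 are lowest in NormMg-HFD mice, and Hilpda separates the HFD mice (21.4 to 45.4 FPKM) from the LFD mice (5.98 to 13.0 FPKM).

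Plin1, the adipocyte coat, was lower on the HFD at normal Mg2+ and higher with low Mg2+ on the HFD. Its level was 1189, 1101, 859 and 1070.4 FPKM in the NormMg-LFD mice and 609.6, 665, 540.1, 626 and 710.4 FPKM in the NormMg-HFD mice. It was 848, 773, 1076, 700.1 and 955 FPKM in the LowMg-HFD mice and 1079, 1146, 1041, 922 and 1159 FPKM in the LowMg-LFD mice. The NormMg-HFD mice lay wholly below both LFD groups, and 4 of 5 LowMg-HFD mice lay above every NormMg-HFD mouse, the exception being LowMg-HFD replicate 4. The log2 difference of NormMg-HFD from NormMg-LFD was -0.74 (SE 0.12, adjusted p = 0.000125), a 1.67-fold lower mean. With low Mg2+ on the HFD Plin1 was higher by 0.45 (SE 0.12, adjusted p = 0.0116), a 1.38-fold higher mean. Both calls held when any of the 19 mice was left out. Between LowMg-HFD and LowMg-LFD mice the difference was -0.31 (SE 0.12, adjusted p = 0.082), and the 2 LFD groups differed by 0.02 (95% interval -0.24 to 0.29). The Plin1 interaction was 0.43 (adjusted p = 0.165), and it passed with quantile normalization (0.63, adjusted p = 0.0283).

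Plin4, which coats small nascent droplets in white adipocytes, was lower on the HFD at normal Mg2+ and higher with low Mg2+ on the HFD as well. It stood at 812, 902, 635 and 1052 FPKM in the NormMg-LFD mice and at 379.7, 526, 349, 469 and 589 FPKM in the NormMg-HFD mice. The LowMg-HFD mice had 845, 703, 1042, 577 and 947 FPKM, and the LowMg-LFD mice 751, 1093, 597, 876 and 859 FPKM. The NormMg-HFD mice again lay wholly below both LFD groups, while 3 groups, both LFD groups and LowMg-HFD, overlapped one another. Plin4 fell by 0.88 on the HFD at normal Mg2+ (SE 0.20, adjusted p = 0.00181), a 1.84-fold lower mean. With low Mg2+ the HFD mice had a 1.78-fold higher mean than with normal Mg2+ (log2 difference 0.83, SE 0.19, adjusted p = 0.00577), which ranked 116th from the top of 8336 genes. LowMg-HFD and LowMg-LFD mice differed by -0.03 (95% interval -0.42 to 0.37). The fat effect at low Mg2+ minus that at normal Mg2+ was 0.86 (SE 0.27), which missed the threshold (adjusted p = 0.091) and passed with quantile normalization (1.02, adjusted p = 0.0468).

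Adipocyte genes moved in the direction of Plin1 and Plin4 in these comparisons. Of the 14 looked at, 9 fell and 2 rose (Lep and Cd36) on the HFD at normal Mg2+, and 7 rose (Adipoq, Retn, Cfd, Acvr1c, Adig, Slc2a4 and Lpin1) and 0 fell with low Mg2+ on the HFD. Their median log2 difference was -0.65 and 0.52, respectively, where the medians over all genes tested were 0.07 and -0.04. Each mouse was then centred on 7 of the 14, Adipoq, Fabp4, Pparg, Cebpa, Aqp7, Acvr1c and Adig, none of them a droplet gene of this set. Of these 7, 5 fell and 0 rose with fat at normal Mg2+ (median -0.66). With low Mg2+ on the HFD, 3 rose and 0 fell (median 0.48). Centring therefore subtracts their mean change from that of every gene. After it, Plin1 differed by -0.18 (adjusted p = 0.131) for fat at normal Mg2+ and by -0.09 (adjusted p = 0.417) for Mg2+ on the HFD. Both calls, which held under the other 27 alternatives, were lost. The Plin4 differences shrank to -0.32 (adjusted p = 0.0656) and 0.28 (adjusted p = 0.0835), also the only alternative to end these calls. This centring moved the median of all genes to 0.63 and -0.59. Relative to those medians, Plin1 stood at -0.81 and 0.50 and Plin4 at -0.95 and 0.87, the same as relative to the medians before centring. Centring shifts all genes of a mouse alike, so a difference relative to the median cannot change with it. This holds for each such value given in the report. Cidec (0.59) and Bscl2 (0.58) passed for fat at normal Mg2+ under this centring, and Plin3 (-0.80) and Bscl2 (-0.64) for Mg2+ on the HFD. Relative to the medians, these stood at -0.04, -0.05, -0.22 and -0.05.

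**Figure D2:**
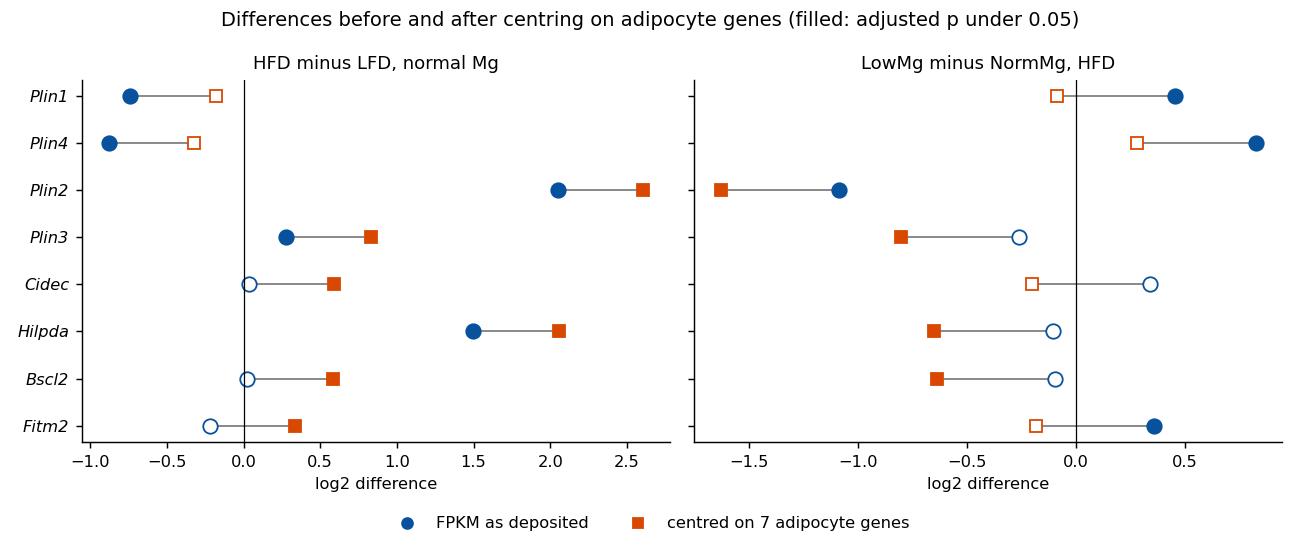
Log2 differences of the 8 genes for the HFD against the LFD at normal Mg2+ (left) and for low against normal Mg2+ on the HFD (right), with FPKM as deposited (circles) and after centring each mouse on 7 adipocyte genes (squares); filled symbols have an adjusted p under 0.05. Centring shifts every gene the same way, so that Plin1 moves from -0.74 to -0.18 and from 0.45 to -0.09, while Plin2 moves from 2.05 to 2.61 and from -1.09 to -1.63.

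Plin2, the coat of droplets in most cell types, showed the widest range of the 4 perilipins. Its level was 191, 239.6, 164 and 211 FPKM in the NormMg-LFD mice and 1017, 663, 1052, 868 and 637 FPKM in the NormMg-HFD mice. It was 554, 539, 261, 299 and 388 FPKM in the LowMg-HFD mice and 359, 200.45, 322, 185 and 252 FPKM in the LowMg-LFD mice. Every NormMg-HFD mouse exceeded all mice of the other groups, and the LowMg-HFD mice, all above the NormMg-LFD mice, overlapped the LowMg-LFD mice. Plin2 rose 4.21-fold on the HFD at normal Mg2+ (log2 difference 2.05, SE 0.24, adjusted p = 2.78e-06) and ranked 147th from the top of 8336 genes. With low Mg2+ on the HFD its mean was 2.08-fold lower (log2 difference -1.09, SE 0.22, adjusted p = 0.00377), the 185th lowest difference. Both calls held under all 28 alternatives, centring on adipocyte genes among them.

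At low Mg2+, the HFD mice had a mean of 408 FPKM of Plin2 against 264 FPKM in the LFD mice, and the difference of 0.61 (SE 0.22) missed the threshold (adjusted p = 0.0704). It passed without LowMg-HFD replicate 3 (0.75, adjusted p = 0.0249), LowMg-HFD replicate 4 (0.71, adjusted p = 0.0436) or LowMg-LFD replicate 1 (0.73, adjusted p = 0.0477), and with adipocyte centring (0.82, adjusted p = 0.0156, or 0.51 relative to the median of all genes) or a replicate block (adjusted p = 0.0473). Over 28 alternatives, 5 of which called it, its adjusted p ranged from 0.0156 to 0.186. The 2 LFD groups differed by 0.35 (95% interval -0.14 to 0.85, adjusted p = 0.823). The fat effect was smaller by 1.44 on the log2 scale at low than at normal Mg2+ (interaction -1.44, SE 0.33, adjusted p = 0.0447). This call was close to the threshold. It held in 5 of 19 fits that left out a mouse (NormMg-HFD replicates 2 and 5, LowMg-HFD replicates 1 and 2, or LowMg-LFD replicate 1) and was lost in 14, with an adjusted p of up to 0.0975. It was also lost with a pseudocount of 0.1 (adjusted p = 0.0505), a filter of 1 FPKM (adjusted p = 0.0535) or none (adjusted p = 0.119), and with a replicate block (adjusted p = 0.0725). Without NormMg-LFD replicate 3, the library with pancreas genes, the interaction was -1.53 (adjusted p = 0.0862), and without LowMg-LFD replicate 4, the library with epididymis genes, it was -1.55 (adjusted p = 0.0507).

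Macrophage genes moved with Plin2. All 16 looked at, Cd68, Adgre1, Trem2 and Gpnmb among them, were higher on the HFD at normal Mg2+ (median log2 difference 2.01) and all 16 were lower with low Mg2+ on the HFD (median -1.21). Their summed level ranged from 866 to 1061 FPKM in NormMg-LFD mice, from 667 to 1344 FPKM in LowMg-LFD mice, from 3417 to 5608 FPKM in NormMg-HFD mice and from 1079 to 3163 FPKM in LowMg-HFD mice, and none of the 16 was at 0 in any group. Within the NormMg-HFD group, ordering the mice by this sum (3417, 3905, 4366, 5044 and 5608 FPKM) put Plin2 in the order 637, 663, 868, 1017 and 1052 FPKM and Plin1 in the order 710.4, 665, 626, 609.6 and 540.1 FPKM. In the LowMg-HFD group the same ordering (1079, 1578, 1594, 2739 and 3163 FPKM) gave 299, 261, 388, 539 and 554 FPKM of Plin2 and 700.1, 1076, 955, 773 and 848 FPKM of Plin1. The LFD groups did not follow the HFD groups in this. In the LowMg-LFD mice, sums of 667, 893, 1059, 1095 and 1344 FPKM went with 359, 322, 252, 200.45 and 185 FPKM of Plin2, the reverse order, and in the NormMg-LFD mice sums of 866, 909, 974 and 1061 FPKM went with 239.6, 191, 211 and 164 FPKM. The part of macrophages in the Plin2 differences was not tested.

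**Figure D3:**
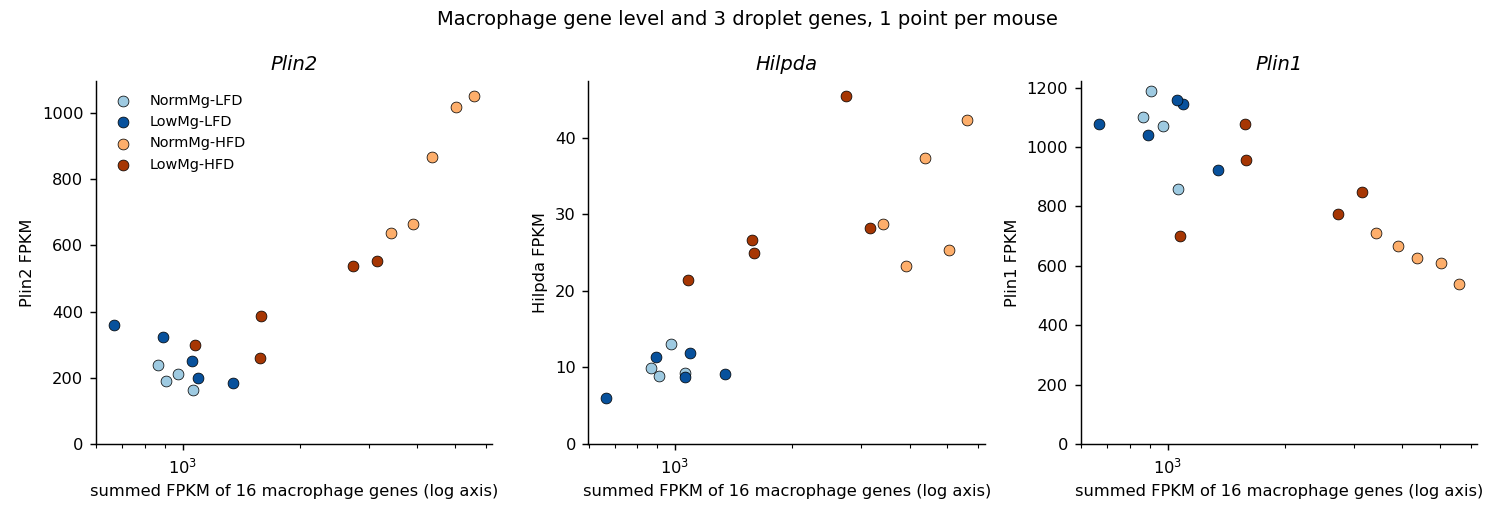
FPKM of Plin2, Hilpda and Plin1 (vertical, linear) against the summed FPKM of 16 macrophage genes (horizontal, log axis), with 1 point per mouse coloured by diet group. NormMg-HFD mice have the highest macrophage sums (3417 to 5608 FPKM) and the highest Plin2, and the LowMg-HFD mice (1079 to 3163 FPKM) lie between them and the LFD mice (667 to 1344 FPKM), with some overlap with the latter.

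Plin3, a perilipin of the cytosol that moves onto new droplets, differed little in size but with a narrow spread. Its level was 32.65, 32.25, 41.5 and 33.3 FPKM in the NormMg-LFD mice and 26.1, 24.7, 33.1, 28.5 and 29.3 FPKM in the LowMg-LFD mice. The NormMg-HFD mice had 43.2, 39.7, 42.4, 43.8 and 42.25 FPKM and the LowMg-HFD mice 34.3, 38.4, 38.8, 29.9 and 35.01 FPKM. All LowMg-HFD mice were below all NormMg-HFD mice, yet the difference of -0.26 (SE 0.09) missed the threshold (adjusted p = 0.058). It passed without NormMg-LFD replicate 4, LowMg-HFD replicate 2 or LowMg-LFD replicate 3 (adjusted p = 0.0374 to 0.0468). Plin3 rose on the HFD by 0.28 at normal Mg2+ (SE 0.10, adjusted p = 0.0339) and by 0.31 at low Mg2+ (SE 0.09, adjusted p = 0.0302). The first call was lost without any 1 of 7 mice (NormMg-LFD replicates 2, 3 and 5, and NormMg-HFD replicates 1, 3, 4 and 5, adjusted p = 0.0517 to 0.103), and at 0.103 it was weakest of these without NormMg-LFD replicate 3. It was also lost with no filter (adjusted p = 0.0522), median centring (0.17, adjusted p = 0.157), quantile normalization (0.14, adjusted p = 0.258) and a replicate block (0.28, adjusted p = 0.0503), so that it held under 17 of 28 alternatives. The second was lost without LowMg-HFD replicates 1, 2 or 3 or LowMg-LFD replicates 1 or 2 (adjusted p = 0.0546 to 0.0855), with no filter (adjusted p = 0.0563), with only the groups compared (adjusted p = 0.0895), with median centring (0.20, adjusted p = 0.151) and with quantile normalization (0.19, adjusted p = 0.174), and held under 19 of 28. On the LFD, low Mg2+ went with a difference of -0.29 (SE 0.10, unadjusted p = 0.00805, adjusted p = 0.74).

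The 4 perilipins were therefore mixed in different proportions. Plin2 made up a median of 43.3% of their summed FPKM in NormMg-HFD mice (range 32.2% to 53.0%), against 18.6% in LowMg-HFD mice (10.8% to 26.3%), 10.9% in LowMg-LFD mice (8.13% to 16.2%) and 9.28% in NormMg-LFD mice (8.60% to 10.5%). The Plin1 share was 27.2% to 35.9% in NormMg-HFD mice, 37.2% to 44.5% in LowMg-HFD mice and 45.2% to 53.4% over both LFD groups, so that its 3 ranges did not meet. The ratio of Plin2 to Plin1 FPKM had a median of 1.39 in NormMg-HFD, 0.426 in LowMg-HFD, 0.217 in LowMg-LFD and 0.194 in NormMg-LFD mice. These shares do not change with the scaling of a library, since they compare genes within a mouse. The sum itself had a median of 1983 FPKM (range 1894 to 2049.8 FPKM) in NormMg-HFD, 2281 FPKM (1606 to 2417 FPKM) in LowMg-HFD, 2215 FPKM (1994 to 2464 FPKM) in LowMg-LFD and 2251 FPKM (1699 to 2367 FPKM) in NormMg-LFD mice, so that all groups overlapped. No test was run on these proportions.

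**Figure D4:**
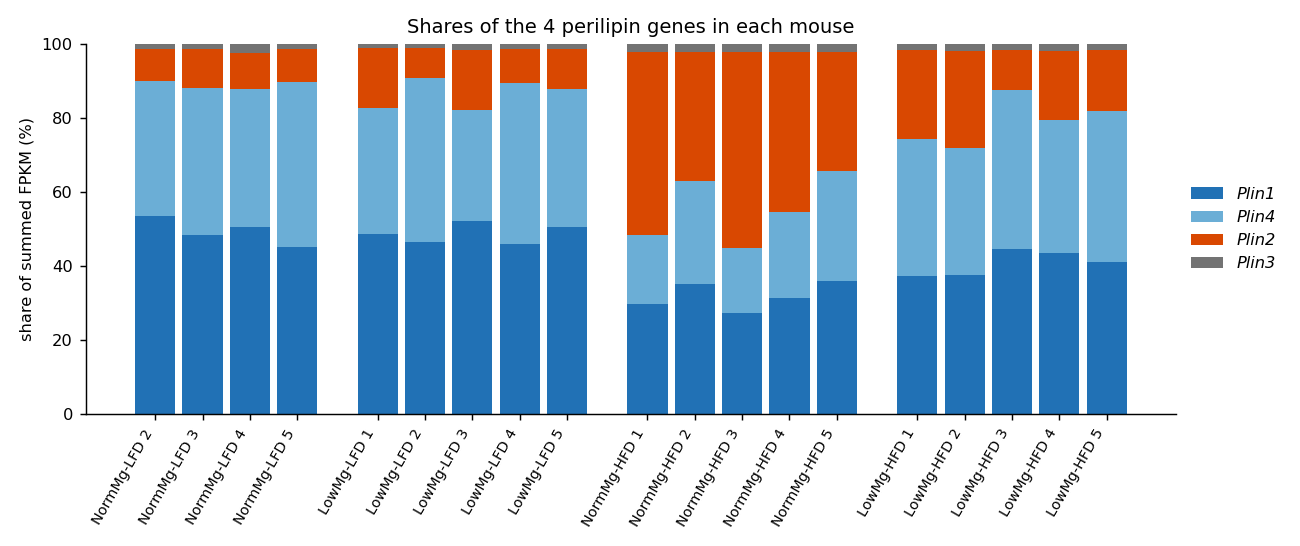
Share of Plin1, Plin4, Plin2 and Plin3 in the summed FPKM of the 4 perilipins, in percent, with 1 bar for each of the 19 mice, grouped by diet. The Plin2 segment spans 32.2% to 53.0% in NormMg-HFD mice and 8.13% to 26.3% in the other 14 mice.

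Cidec, which fuses droplets and favours a single large one in white adipocytes, passed the threshold in no comparison. It was at 1895, 1865, 1053.5 and 2429 FPKM in the NormMg-LFD mice, at 1786, 1757, 1502, 1686 and 2204 FPKM in the NormMg-HFD mice, at 2164, 2445, 2189, 1968 and 2501 FPKM in the LowMg-HFD mice and at 2080.5, 2349, 1745, 2114 and 2192 FPKM in the LowMg-LFD mice. All pairs of groups overlapped. For fat the differences were 0.03 at normal Mg2+ (95% interval -0.33 to 0.40) and 0.11 at low Mg2+ (-0.24 to 0.45). For Mg2+ on the HFD it was 0.34 (-0.00456 to 0.69, adjusted p = 0.16), which passed without NormMg-LFD replicate 4 (adjusted p = 0.0432), the mouse with the lowest Cidec value, and with quantile normalization (0.42, adjusted p = 0.028). The ratio of Cidec to Plin1 FPKM had a median of 2.78 (range 2.64 to 3.10) in NormMg-HFD mice and of 1.64 (1.23 to 2.27) in NormMg-LFD mice, which did not overlap. It was 2.62 (2.03 to 3.16) in LowMg-HFD mice and 1.93 (1.68 to 2.29) in LowMg-LFD mice, which overlapped.

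Hilpda, a small droplet protein known to inhibit the lipase ATGL and to be induced by hypoxia and by fatty acids, was higher on the HFD at both Mg2+ levels. Its level was 8.95, 9.92, 9.26 and 13.0 FPKM in the NormMg-LFD mice and 25.3, 23.2, 42.2, 37.35 and 28.8 FPKM in the NormMg-HFD mice. It was 5.98, 11.9, 11.3, 9.13 and 8.74 FPKM in the LowMg-LFD mice and 28.2, 45.4, 26.6, 21.4 and 24.99 FPKM in the LowMg-HFD mice. Every HFD mouse exceeded every LFD mouse. The mean was 3.05-fold higher at normal Mg2+ (log2 difference 1.499, SE 0.21, adjusted p = 2.19e-05) and 3.11-fold higher at low Mg2+ (1.53, SE 0.20, adjusted p = 0.00032), where it ranked 68th from the top of 8336 genes. Both calls held under all 28 alternatives. The fat effects differed by 0.03 between Mg2+ levels (95% interval -0.59 to 0.64), and the HFD groups differed by -0.11 (-0.53 to 0.32, adjusted p = 0.756). Of the 16 macrophage genes, 16 were higher on the HFD at normal Mg2+ and 10 at low Mg2+ (median log2 difference 0.73). The part of macrophages in the Hilpda differences was not tested. After centring on adipocyte genes, however, Hilpda was lower with low Mg2+ on the HFD (-0.65, adjusted p = 0.0163), and relative to the median of all genes under that centring it stood at -0.06.

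Bscl2 encodes seipin, which organises droplet assembly at the endoplasmic reticulum. It was at 183, 177, 139 and 159.6 FPKM in the NormMg-LFD mice, 157, 157, 174, 168 and 178 FPKM in the NormMg-HFD mice, 132, 166, 154, 184 and 147 FPKM in the LowMg-HFD mice and 199, 177, 182, 181 and 187.5 FPKM in the LowMg-LFD mice. All groups overlapped and no comparison passed the threshold. The difference of the HFD at low Mg2+ was -0.25 (SE 0.09, adjusted p = 0.0638), and the interaction was -0.27 (SE 0.13, adjusted p = 0.245). The former passed with median centring (-0.36, adjusted p = 0.0317) and quantile normalization (-0.34, adjusted p = 0.0232), and without NormMg-LFD replicate 4 (adjusted p = 0.0422) or LowMg-HFD replicate 4 (adjusted p = 0.0198), and its adjusted p ranged from 0.0198 to 0.842 over 28 alternatives.

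Fitm2 encodes FIT2, which sorts newly made triacylglycerol into budding droplets, and it rose with low Mg2+ on the HFD. The NormMg-HFD mice had 42.3, 45.1, 40.7, 45.7 and 50.6 FPKM and the LowMg-HFD mice 59.97, 61.7, 60.5, 45.2 and 62.85 FPKM. The NormMg-LFD mice had 52.95, 58.2, 41.3 and 58.7 FPKM and the LowMg-LFD mice 61.5, 68.5, 54.6, 57.15 and 61.2 FPKM. In 4 of 5 LowMg-HFD mice Fitm2 was above every NormMg-HFD mouse, the exception again being LowMg-HFD replicate 4. The log2 difference was 0.36 (SE 0.11, adjusted p = 0.0256). The call was lost without NormMg-HFD replicates 1 or 3 or LowMg-HFD replicates 3 or 5 (adjusted p = 0.0616 to 0.0738) and with no filter (adjusted p = 0.0562), and after centring on adipocyte genes the difference was -0.18 (adjusted p = 0.102), or 0.40 relative to the median of all genes. For fat the differences were -0.22 at normal Mg2+ (adjusted p = 0.138), which passed without NormMg-LFD replicate 4 (-0.33, adjusted p = 0.0215) and with quantile normalization (-0.35, adjusted p = 0.0363), and -0.07 at low Mg2+ (adjusted p = 0.726). With adipocyte centring, which moved all genes upwards in this comparison, the fat difference at normal Mg2+ was 0.34 (adjusted p = 0.00876), which is -0.29 relative to the median of all genes.

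Counted over the set, 5 of 8 genes changed with fat at normal Mg2+: Plin2, Hilpda and Plin3 rose, and Plin1 and Plin4 fell. Of all genes tested, 37.4% passed in this comparison (24.6% higher and 12.8% lower). With low Mg2+ on the HFD, 4 of 8 passed: Plin1, Plin4 and Fitm2 rose and Plin2 fell. The background was 18.5%, with 5.58% higher and 12.9% lower. These splits changed with adipocyte centring, under which 6 of 8 genes were higher and 0 lower for fat at normal Mg2+, and 0 higher and 4 lower for Mg2+ on the HFD. The splits over all genes changed with it as well. Of 8336 genes, 5791 were then higher and 179 lower for fat at normal Mg2+, and 39 higher and 6089 lower for Mg2+ on the HFD. Fat at low Mg2+ changed 2 of 8, Hilpda and Plin3, both higher, where the background was 15.9% (12.4% higher and 3.51% lower). For Mg2+ on the LFD none of the 8 and 0.0% of all genes passed the threshold in limma, although 547 genes had an unadjusted p under 0.05, Plin3 among the 8. The interaction passed for Plin2 alone, with a background of 1.25% (0.492% higher and 0.756% lower). The comparisons share groups of mice, so that they are not independent of one another.

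Groups did not overlap for 4 of 8 genes with fat at normal Mg2+ (Plin2 and Hilpda higher, Plin1 and Plin4 lower), where 32.1% of all genes did not (21.5% higher and 10.6% lower), and for 1 of 8 with fat at low Mg2+ (Hilpda, higher, against 9.3% of all genes, 6.99% higher and 2.3% lower). They did not overlap for 2 of 8 with Mg2+ on the HFD (Plin2 and Plin3, both lower, against 12.8% of all genes, 3.2% higher and 9.56% lower). With Mg2+ on the LFD no gene of the 8 was free of overlap, against 1.79% of all genes (0.48% higher and 1.31% lower). The median log2 difference of the 8 genes was 0.03 for fat at normal Mg2+ and 0.12 for Mg2+ on the HFD, near the medians of 0.07 and -0.04 over all genes tested.

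**Figure D5:**
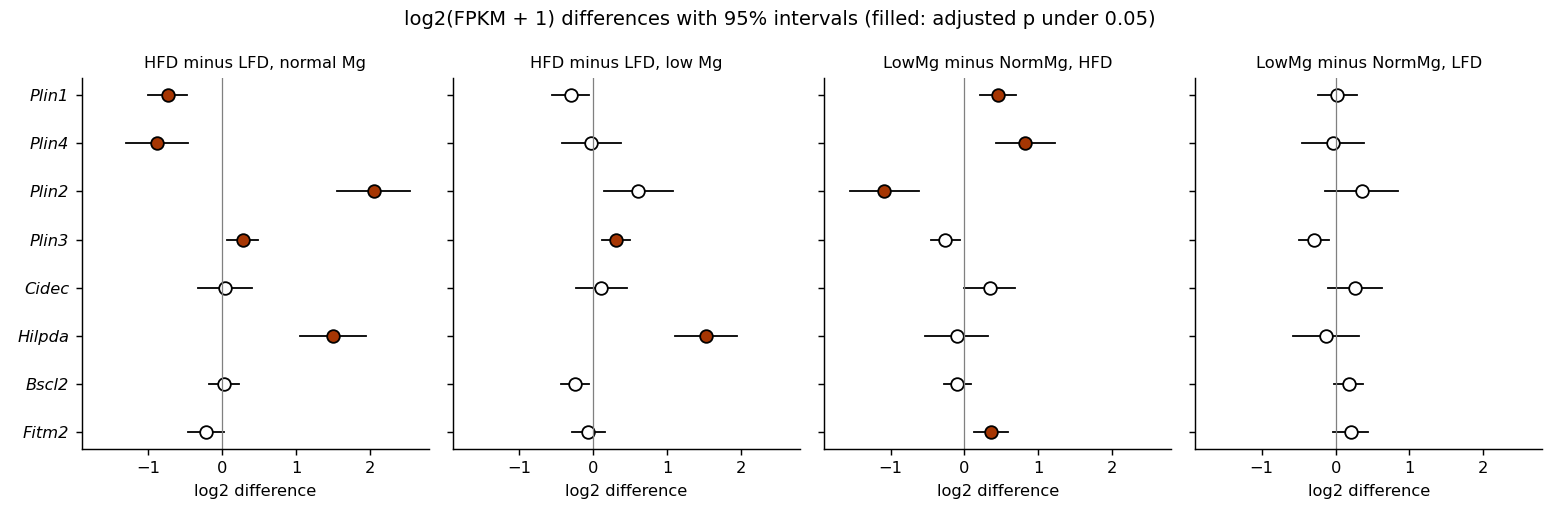
Log2(FPKM + 1) differences of the 8 genes in 4 comparisons (points) with 95% intervals from limma (lines); filled points have an adjusted p under 0.05. Filled points number 5 for fat at normal Mg2+, 2 for fat at low Mg2+, 4 for Mg2+ on the HFD and 0 for Mg2+ on the LFD, and Plin2 lies at 2.05 in the first panel and at -1.09 in the third.

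The calls of fat at normal Mg2+ for Plin1, Plin2, Plin4 and Hilpda held without the libraries that stood apart, while the Plin2 interaction did not. Without NormMg-LFD replicate 3, the fat differences at normal Mg2+ were -0.71 for Plin1, 2.14 for Plin2, -0.84 for Plin4 and 1.49 for Hilpda (adjusted p = 0.000788, 1.79e-05, 0.00753 and 0.000142), and Plin3 at 0.24 no longer passed. Without LowMg-LFD replicate 4, Hilpda and Plin3 still rose on the HFD at low Mg2+ (1.52 and 0.31, adjusted p = 0.0011 and 0.0444). Without NormMg-LFD replicate 4, 6 of 8 genes passed for Mg2+ on the HFD (4 higher and 2 lower), where 1615 of 8349 genes passed. For fat at normal Mg2+ 6 of 8 passed (3 higher and 3 lower), against 3109 of 8349. The Plin2 interaction was then -1.35 (adjusted p = 0.0585). Without LowMg-HFD replicate 4, which had the lowest macrophage sum and the lowest Plin1, Plin4 and Fitm2 levels of its group, 4 of 8 genes passed for fat at low Mg2+, Plin2 (0.71) and Bscl2 (-0.31) being added to Hilpda and Plin3. In that fit 1468 of 8278 genes passed (1154 higher and 314 lower), against 1329 of 8336 with all mice.

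Other proteins of the droplet were read from a list of 29 genes, of which 22 were tested. With low Mg2+ on the HFD 6 rose and none fell: the lipases Pnpla2 (ATGL, 0.64) and Lipe (hormone-sensitive lipase, 0.65), the triacylglycerol synthesis genes Dgat1 (0.31) and Lpin1 (0.57, also 1 of the 14 adipocyte genes), the caveolin Cav1 (0.35) and the droplet methyltransferase-like gene Mettl7a1 (0.84). With fat at normal Mg2+ 7 fell, the same 6 genes and Tmem159, which encodes a partner of seipin, and 2 rose. The 2 that rose were Pcyt1a, the enzyme that limits phosphatidylcholine synthesis for the droplet surface (0.46), and Aup1 (0.38). At low Mg2+ the HFD went with 5 falls (Abhd5, Dgat1, Mettl7a1, Pnpla2 and Vps13c) and 1 rise (Pcyt1a, 0.39). None passed for Mg2+ on the LFD or for the interaction. The median of the 22 was 0.10 for Mg2+ on the HFD and -0.07 for fat at normal Mg2+. Plin5, the perilipin of oxidative tissues, was too low to be tested, with group means of 5.03 to 8.05 FPKM, as was Cidea, the brown fat relative of Cidec, with 2.56 to 7.59 FPKM.

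Transcription factors known to act on droplet genes were read from a list of 12, with 10 tested; Pparg and Cebpa also belong to the adipocyte genes. Fat at normal Mg2+ went with falls of Pparg (-0.66), Cebpa (-0.65), Rxra (-0.46), Srebf1 (-0.98) and Epas1 (-0.24), and with rises of Cebpb (1.15), Hif1a (0.70) and Esrra (0.29). With low Mg2+ on the HFD, Rxra (0.35) and Srebf1 (0.50) rose and Cebpb (-0.57), Hif1a (-0.45) and Esrra (-0.32) fell, while Pparg (0.47) missed the threshold (adjusted p = 0.0621). Of 12 genes that hypoxia is known to induce, 9 were tested. On the HFD at normal Mg2+, where Hilpda rose, Vegfa (-1.20), Ndrg1 (-0.94), Bnip3 (-0.47) and Pdk1 (-0.57) fell and Pgk1 (0.43) and P4ha1 (0.63) rose. At low Mg2+, where Hilpda rose as well, only Adm rose (0.78) and Pdk1 fell (-0.70) among the 9. With low Mg2+ on the HFD, where Hilpda did not pass (-0.11, adjusted p = 0.756), Vegfa (0.80), Ndrg1 (0.70) and Pfkfb3 (0.63) rose and Pgk1 (-0.33) fell. The interaction passed for Ndrg1 (1.13, adjusted p = 0.0447).

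Within the groups, some of the 8 genes deviated together. Over the deviations of the 19 mice from their group means, Pearson's r was 0.84 for Cidec with Fitm2, 0.83 for Plin4 with Fitm2, 0.75 for Plin1 with Plin4 and 0.74 for Plin1 with Fitm2. Plin2 stood outside this block, at -0.18 with Plin1, -0.39 with Plin4 and 0.27 with Hilpda. These values are a description. The 2 genes of a pair come from the same libraries and share their RNA quality and cell mixture.

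The genes most like each member over the 19 mice were also listed, by Pearson's r of log2(FPKM + 1), which reflects the diet groups as well as the mice within them. For Plin1 they were Amy1, Vegfb and Ces1d (0.97 each), for Plin4 Fbxo21, Nrg4 and Sulf2 (0.94 each) and for Plin2 Mfsd12 (0.97), Rtn4 (0.96) and Gyg (0.95). Hilpda was followed most closely by Dock8, Tnfrsf12a and Mest (0.95, 0.94 and 0.94), Fitm2 by Adipor2, Fah and Apol6 (0.93, 0.91 and 0.88) and Plin3 by Rfc5, Steap3 and Plekha1 (0.91, 0.91 and 0.90). The closest genes to Cidec were Aifm2, Tmem120a and Tusc5 (0.88, 0.86 and 0.85), and those to Bscl2 were Psmd4, Mocs2 and Aldh1l1 (0.78, 0.74 and 0.74). For the deviations from the group means, r was 0.87 to 0.88 for the genes of Plin1, 0.80 to 0.81 for those of Plin2, 0.86 to 0.92 for those of Plin4, 0.67 to 0.72 for those of Plin3 and 0.62 to 0.74 for those of Hilpda. It was 0.85 to 0.89 for those of Cidec, 0.79 to 0.89 for those of Fitm2 and 0.63 to 0.80 for those of Bscl2.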

How the data were processed

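RNA of eWAT from 19 mice was sequenced by the authors on 1 library per mouse, with 50 bp single-end reads. With HISAT and Bowtie2 they aligned reads to mouse transcripts of GRCm38/mm10, and they deposited 1 table of FPKM per gene, estimated by RSEM 1.2.31. Total read counts and the percent mapped of each library were deposited by the authors as a second table. Of 24238 genes, 1 held a cell without a number and was dropped. Another 26 symbols, read as dates by a spreadsheet program, were put back by their gene identifiers. No read count per gene was used, so the counting error of a single FPKM value is unknown and errors come from the spread between mice. Replicates are separate mice by the labels.

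The values were taken as log2 of FPKM plus a pseudocount of 1. A gene was tested if, in some diet group, its mean exceeded 8 FPKM and 4 or more of the mice exceeded 8 FPKM, which left 8336. A single fit (limma 3.58.1 under R 4.3.3, intensity trend on) covered all 4 groups. Its two-sided p values were adjusted over the genes tested by Benjamini-Hochberg, with 0.05 as the threshold. An exact permutation test planned for genes under the filter was not needed. Simulated data, in which 200 genes were changed, served to test the fit. Alternatives were a pseudocount of 0.1, an FPKM filter of 1 or none, median, quantile and adipocyte centring, no intensity trend, only the groups compared, a replicate block, and leaving out each mouse. The 8 genes, the gene lists and the motifs were chosen with earlier results of these data known. All 8 genes are named. From the lists, names were to come only from genes past the threshold or those that define a cell type, and not all of these are named; over all genes, the 3 most like each member are. Lists not described in the report gave the following for Mg2+ on the HFD and for fat at normal Mg2+, respectively. Of 8 stromal genes 3 were lower and 4 were higher. Of 8 endothelial genes 3 were higher and 2 were lower. Of 6 mesothelial genes 1 was tested (Krt19), and it was lower with fat; of 6 brown adipocyte genes 1 was tested and did not pass. Promoters are those of RefSeq for GRCm38.p6, and positions are those of GENCODE vM21. Plots were made in matplotlib 3.10.9 under Python 3.11.15.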

Additional observations from a re-analysis of the deposited data

Results flagged for a closer look

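In 32 sets of values, 1 per gene and diet group, 3 had a mouse whose gap to its neighbour was large for the range of its group by Dixon's criterion, where chance gives about 1 in 20. Plin3 was 41.53 FPKM in NormMg-LFD replicate 4, against at most 33.3 FPKM in the other 3 mice. Fitm2 was 45.22 FPKM in LowMg-HFD replicate 4, against at least 59.97 FPKM in the other 4. Hilpda was 45.4 FPKM in LowMg-HFD replicate 2, against at most 28.2 FPKM in the other 4. The Plin2 response to fat differed between the Mg2+ levels by an interaction of -1.44 on the log2 scale (adjusted p = 0.0447 in limma), with a log2 difference of 2.05 at normal Mg2+ and 0.61 at low Mg2+.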

How the results depend on the processing

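Of 1112 recomputed differences of the 8 genes, 994 kept their direction and their side of the threshold, 46 lost a call, 24 gained one and 48 changed sign, of which 1 passed the threshold. The number of the 8 genes that passed the interaction, 1 with the settings of the report, was 0 with a pseudocount of 0.1, an FPKM filter of 1, no filter or a replicate block, 3 with quantile normalization, and 0 to 1 when a mouse was left out. For fat at low Mg2+, 2 with the settings of the report, it was 1 with no filter or with only the groups compared, and 1 to 4 when a mouse was left out. Over all genes, fat at low Mg2+ passed for 960 of 24237 with no filter and for 665 of 7799 with only the groups compared. It passed for 800 to 1468 genes when a mouse was left out. The causes were not tested. Over all genes, the interaction passed for 104, for 24 with a pseudocount of 0.1, 48 and 2 with a filter of 1 and none, 245, 347 and 438 with median, quantile and adipocyte centring, 67 without the trend, and 0 to 482 when a mouse was left out (482 without LowMg-HFD replicate 2, and 0 without NormMg-LFD replicates 2 or 3, NormMg-HFD replicates 1, 3 or 4, LowMg-HFD replicates 3 or 5, or LowMg-LFD replicate 5). Mg2+ on the LFD passed for 1 gene with no filter. Adipocyte centring raised the calls from 1542 to 6128 for Mg2+ on the HFD and from 3114 to 5970 for fat at normal Mg2+; the share of lower calls went from 69.8% to 99.4% and from 34.2% to 3.00%. Median and quantile centring gave lower shares of 56.7% and 52.8% for Mg2+ on the HFD, 49.9% and 53.1% for fat at normal Mg2+, and 47.2% and 49.1% for fat at low Mg2+ (22.0% with the settings of the report), where only the groups compared gave 665 calls against 1329. Without NormMg-HFD replicate 3, Mg2+ on the HFD passed for 921 genes, and without LowMg-HFD replicates 1 or 2 or LowMg-LFD replicate 1, fat at low Mg2+ passed for 866, 800 and 834.

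Differences that changed sign with median centring were Plin4 for Mg2+ on the LFD (0.035), Cidec (-0.071) and Bscl2 (-0.079) for fat at normal Mg2+, and Cidec for fat at low Mg2+ (-0.00397). With quantile normalization they were Bscl2 for Mg2+ on the HFD (0.024), Plin1 for Mg2+ on the LFD (-0.072), Cidec (-0.054) and Bscl2 (-0.16) for fat at normal Mg2+, and the Hilpda interaction (-0.00277). With adipocyte centring they were Cidec (-0.20), Plin1 (-0.089) and Fitm2 (-0.18) for Mg2+ on the HFD, Plin1 (-0.17) and Bscl2 (-0.023) for Mg2+ on the LFD, Fitm2 for fat at normal Mg2+ (0.34), Plin4 (0.19) and Fitm2 (0.15) for fat at low Mg2+, and the interactions of Cidec (-0.27), Fitm2 (-0.19), Plin3 (-0.31) and Hilpda (-0.32). None of these except Fitm2 for fat passed.

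With a mouse left out, sign changes were seen for Mg2+ on the LFD in Plin1 (-0.07049 to 0.086), Plin4 (-0.16 to 0.084) and Hilpda (-0.22 to 0.00229), for Mg2+ on the HFD in Hilpda (-0.27 to 0.00685), for fat at normal Mg2+ in Cidec (-0.21 to 0.19) and Bscl2 (-0.055 to 0.078), for fat at low Mg2+ in Plin4 (-0.14 to 0.095) and Fitm2 (-0.10 to 0.0195), and for the interactions of Cidec (-0.088 to 0.31), Plin3 (-0.052 to 0.088) and Hilpda (-0.14 to 0.14).

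Over 27 pairs of mice with the same replicate number, deviations correlated at -0.18 to 0.34 (median 0.0032), with 5 pairs over 0.1. The value of 0.34 was that of NormMg-LFD replicate 4 with LowMg-LFD replicate 4. Pairs of different numbers were not compared, so a factor shared by a replicate number was not tested. With the replicate block, 4, 4, 3 and 0 of the 8 genes passed for Mg2+ on the HFD, fat at normal Mg2+, fat at low Mg2+ and the interaction. Over all 8336 genes, 1466, 3027, 1263 and 0 passed, respectively. Under this block the Plin2 interaction was -1.33 (adjusted p = 0.0725) and the Hilpda interaction was -0.0402. Plin3 lost its call for fat at normal Mg2+ (adjusted p = 0.0503), and Plin2 gained one for fat at low Mg2+ (adjusted p = 0.0473).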
